A study of Mus musculus with 8 samples.

Results

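The genes described here are 10 that have been linked to mature dendritic cells on their way out of a tissue, beside the chemokine receptor Ccr7: Fscn1, Marcks, Marcksl1, Cacnb3, Tbc1d4, Samsn1, Anxa3, Tmem123, Cst7 and Cd200. They were taken by symbol, with every probe that carries one of them, which gave 11 probes, since Tbc1d4 has 2 and each of the other genes 1. They are 10 of the 20887 genes that the arrays' probes could be matched to, and of the 12707 genes tested. All 11 probes were well above background on all 8 arrays, so every member was tested.

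Immature dendritic cells sample their surroundings, and on sensing a microbial product they stop taking up antigen, extend long actin-rich processes and move through lymph vessels to the draining lymph node. The genes of this program serve different ends. Fscn1, Marcks and Marcksl1 act on the actin cytoskeleton, Cacnb3, Tbc1d4 and Anxa3 belong to calcium and membrane traffic, Samsn1 is a signalling adaptor, Cd200 and Tmem123 are surface glycoproteins, and Cst7 is a secreted and lysosomal protease inhibitor. Mature dendritic cells in lymph nodes are known for high Fscn1 and Cd200.

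The 4 LPS samples were mature dendritic cells, made by giving immature cells lipopolysaccharide (LPS), a component of the Gram-negative bacterial envelope, at 50 ng/ml overnight and labelled day 7. The 4 immature samples were labelled day 6, from monocytes of bone marrow progenitors grown in 10 ng/ml GM-CSF together with IL-4, cytokines that drive this differentiation, and all 8 came from C57BL/6 females. Each sample was hybridised to its own one-colour array. The labels number the samples 1 to 4 in each group without saying whether they came from separate mice or cultures, so the p-values measure only the spread between these samples, which may be technical. No day 7 culture without LPS was among the samples, so LPS and the further night in culture cannot be told apart. The arrays shared 1 slide, with all LPS arrays in slide row 2 and all immature arrays in slide row 1, so slide row and treatment cannot be told apart either.

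Between 47.5% and 48.4% of spots were well above background on the LPS arrays and between 47.7% and 51.3% on the immature arrays. The dendritic cell markers Flt3, Zbtb46, Itgax, Cd74, H2-Aa and Dpp4 were well above background on all 8 arrays. Immature replicate 3 stood apart from its group, with a median absolute difference to immature replicates 1, 2 and 4 of 0.42, 0.42 and 0.28 on the log2 scale, against 0.13 to 0.24 among LPS arrays and 0.11 to 0.24 among the other immature arrays. Values are printed first as processed signal, the brightness of a spot after background subtraction, which was not scaled between arrays. Levels and fold changes then use log2 of that signal relative to the array's 75th percentile, which averaged 405 ± 12.5 on LPS arrays and 468 ± 18.5 on immature arrays (SD, n = 4 each). A level of 1 therefore means a signal at 2 times that percentile, and levels of different probes are not compared.

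Of the 10 genes, 9 rose after LPS, namely all but Anxa3, and 0 fell. Of all 12707 genes tested, 56% changed at an adjusted p under 0.05, with 31.4% rising and 24.6% falling (limma, Benjamini-Hochberg over all genes), so the background of rising genes is itself high. Of the members, 8 rose at least 2-fold, a mark that 9.16% of all genes passed. In 9 members every LPS array was higher than every immature array, as it was in 30.1% of all genes, and groups separate in either direction were found in 52.3%. The median log2 change was 1.70 over the 10 members and 0.06 over all tested genes. The members are known maturation genes and were listed with earlier results of these data in view, so these counts describe them and are no test of the list.

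**Figure D1:**
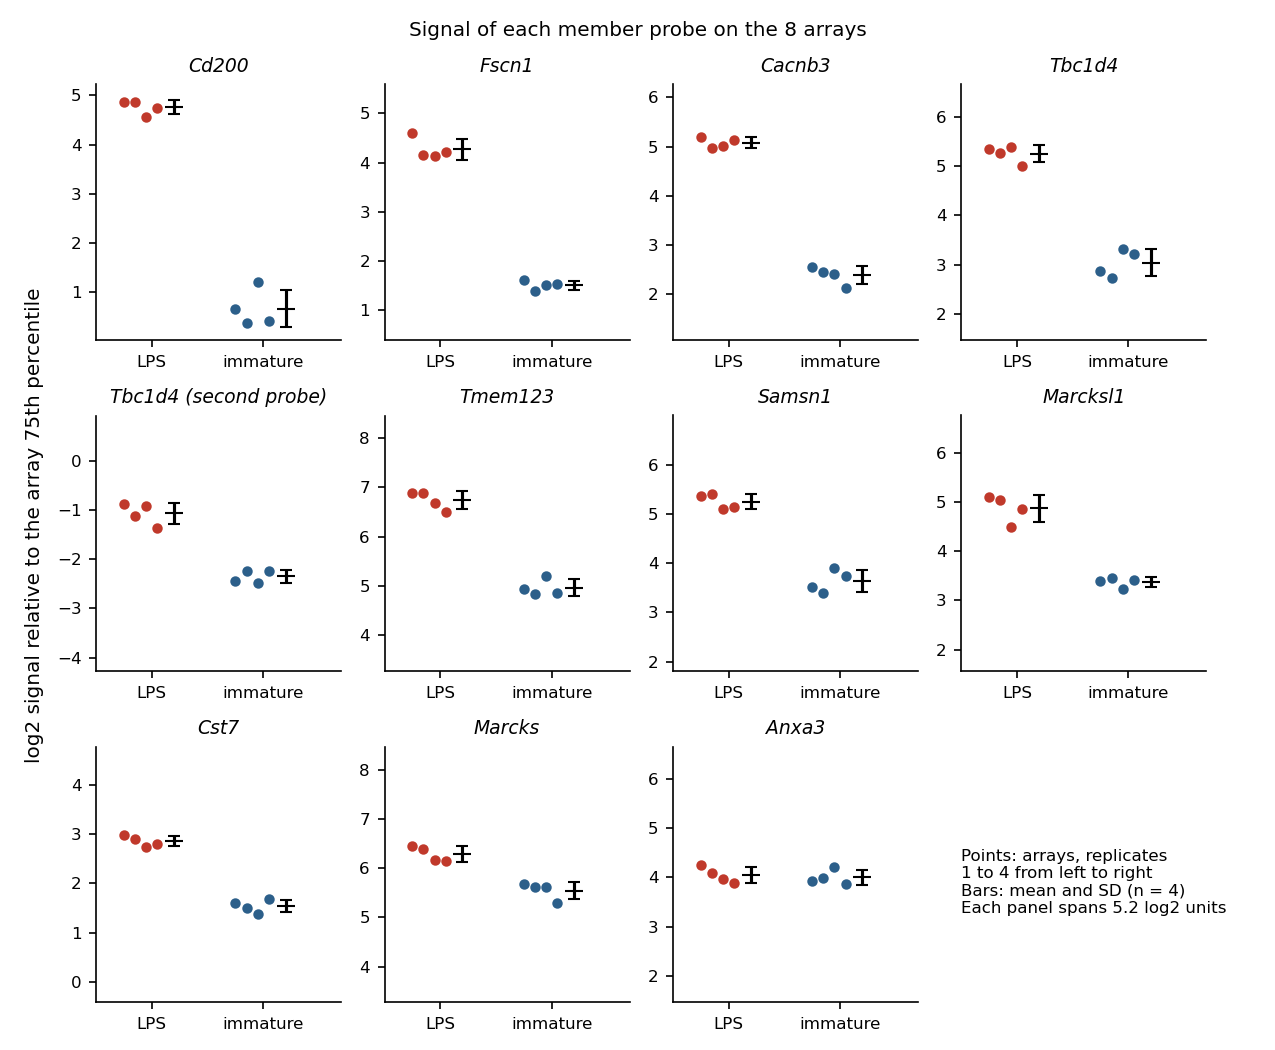
Level of each of the 11 probes on each array, as log2 processed signal relative to the array's 75th percentile, with the 4 LPS arrays left of the 4 immature arrays (1 point an array) and bars for each group's mean and SD. The groups are separate in every panel except that of Anxa3, whose means were 4.05 with LPS and 4.0 in immature cells.

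Fscn1 encodes fascin, which bundles actin filaments into the stiff cores of filopodia and dendrites. Its processed signal was 9962, 7055, 6856 and 7729.9 in LPS replicates 1 to 4, against 1491, 1241, 1298 and 1298 in immature replicates 1 to 4. The LPS arrays all lay far above the immature ones, and LPS replicate 1 was the highest. Its level averaged 4.27 ± 0.22 with LPS and 1.51 ± 0.09 in immature cells (SD, n = 4 each), a log2 rise of 2.76 ± 0.12 (SE) or 6.79-fold (95% interval 5.65 to 8.16, limma, adjusted p = 1.17e-06). The 250 bases before the RefSeq start of Fscn1 are shown because they hold the only copies of TGACGTCA and TATAAA among the member promoters. They lie on the plus strand of GRCm38.p6 at chr5:142960105-142960354, and capitals mark those motifs and each CG.

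Fscn1: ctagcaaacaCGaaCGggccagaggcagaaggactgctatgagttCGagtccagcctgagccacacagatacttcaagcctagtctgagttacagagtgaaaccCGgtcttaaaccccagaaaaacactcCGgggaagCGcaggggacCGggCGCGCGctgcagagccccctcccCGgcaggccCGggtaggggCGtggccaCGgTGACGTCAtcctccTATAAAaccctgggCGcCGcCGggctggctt

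TGACGTCA began 45 bases and TATAAA 31 bases before the start. Both motifs were added to the search after this sequence was read. Of 32851 RefSeq promoter windows of the same length, 1.55% held TGACGTCA and 12.4% held TATAAA on either strand. Those windows had medians of 6 CG pairs and 52.4% G+C. The shares among windows of a base composition like that of Fscn1 were not computed. The Fscn1 window had 18 CG pairs and 62.4% G+C, against medians of 15 and 59.2% over the 10190 tested genes that had a window.

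Marcks encodes the myristoylated protein kinase C substrate that tethers the plasma membrane to actin and binds calmodulin. Its signal was 36287, 33147, 28025 and 29729.7 with LPS, against 24994, 23237, 22299 and 17524 in immature cells. The groups did not overlap, but before scaling the gap between them was smaller than the range within either group. The level was 6.29 ± 0.15 with LPS and 5.54 ± 0.17 in immature cells, a log2 rise of 0.74 ± 0.11 or 1.68-fold (95% interval 1.40 to 2.01, limma, adjusted p = 0.000812). Marcks had the smallest change of the 9 members that rose.

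Marcksl1, the smaller relative of Marcks with the same membrane and calmodulin-binding design, had signals of 14111, 13153, 8784 and 12101 with LPS, against 5133, 5214, 4264 and 4787 in immature cells. Replicate 3 was the lowest of both groups, and even that LPS array exceeded all immature ones. The level was 4.87 ± 0.28 with LPS and 3.37 ± 0.10 in immature cells, a log2 rise of 1.50 ± 0.14 or 2.83-fold (95% interval 2.28 to 3.53, limma, adjusted p = 5.33e-05). The rise of Marcksl1 exceeded that of Marcks by 0.76 on the log2 scale. An exact two-sided permutation test of that difference, which exchanges LPS and immature arrays, gave p = 0.0286, the smallest that 4 against 4 arrays allow, and 0.0524 after adjustment over the 11 such comparisons made.

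The actin relatives did not move as one, and neither did the tested genes at large, of which 31.4% rose and 24.6% fell. A split in these lists is therefore not particular to actin genes. Of 21 tested genes for actin bundling and protrusion other than Fscn1, 4 rose, 4 fell and 13 did not pass, with a median log2 change of 0.04 that turns to -0.13 with arrays scaled to their median and -0.17 without scaling. The formin Fmnl2, which builds protrusions at the cell edge, rose by 1.09 ± 0.12 (limma, adjusted p = 0.000145), while the formin Diaph3 fell by 1.44 ± 0.23 (limma, adjusted p = 0.0011). Fscn2, the retinal relative of fascin, was not well above background on any array. Of 21 tested podosome and Arp2/3 genes 7 rose and 6 fell. With median scaling or none 2 rose and 8 fell, and without LPS replicate 3 the falling genes were 3. Src, a kinase that starts podosomes, rose by 1.29 ± 0.23 (limma, adjusted p = 0.00175), and Gsn, the filament-severing gelsolin, fell by 0.92 ± 0.08 (limma, adjusted p = 3.91e-05).

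Among 10 tested genes of the MARCKS family, protein kinase C and calmodulin other than the members, 4 rose and 2 fell, 1 of the falls being lost without LPS replicate 1, 2 or 4 or immature replicate 1, 2 or 4. Basp1, a membrane protein with a calmodulin-binding site like that of Marcks, averaged 3.70 ± 0.18 with LPS and 2.87 ± 0.13 in immature cells, a log2 rise of 0.83 ± 0.11 (limma, adjusted p = 0.000379). Prkcb, a kinase of the type that phosphorylates Marcks, averaged 3.46 ± 0.09 with LPS and 5.14 ± 0.14 in immature cells. It fell by 1.67 ± 0.09 on the log2 scale (limma, adjusted p = 3.89e-06). Calm3, which encodes calmodulin, rose by 0.63 ± 0.09 (limma, adjusted p = 0.000524), and was picked for naming after its value was seen.

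Cacnb3 encodes a beta subunit of voltage-gated calcium channels, which helps bring the pore to the surface. Its signal was 15203, 12478, 12683 and 14763 with LPS, against 2897, 2610.4, 2439.8 and 1962 in immature cells. All LPS arrays were several times brighter than any immature array, and immature replicate 4 was the dimmest. The level was 5.08 ± 0.11 with LPS and 2.39 ± 0.19 in immature cells, a log2 rise of 2.69 ± 0.11 or 6.47-fold (95% interval 5.45 to 7.68, limma, adjusted p = 1.05e-06). That change and the change of Fscn1 differed by 0.07 on the log2 scale, less than their spread (exact two-sided permutation p = 0.543).

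Of 14 listed channel genes, 7 were well above background on no array, among them the pore genes Cacna1b, Cacna1c and Cacna1e. Of the 6 tested besides Cacnb3, 3 rose and 1 fell. The pore gene Cacna1d averaged 0.11 ± 0.19 with LPS and -2.08 ± 0.43 in immature cells, a log2 rise of 2.19 ± 0.21 (limma, adjusted p = 6.43e-05). The pore gene Cacna1s and the beta subunit Cacnb1 rose by 1.89 ± 0.33 and 1.75 ± 0.11, both chosen for naming after their values were seen. Cacna2d2, an accessory subunit on the outer face, fell by 1.88 ± 0.20 (limma, adjusted p = 0.000111).

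Tbc1d4 encodes AS160, a GTPase-activating protein for Rab proteins that holds back the transport of glucose carriers to the surface in muscle and fat. Its brighter probe, which represents the gene, had signals of 16911, 15364, 16417 and 13347 with LPS, against 3602, 3169, 4566 and 4191 in immature cells. The groups were far apart, with immature replicate 3 the highest of its group. The level was 5.25 ± 0.18 with LPS and 3.04 ± 0.28 in immature cells, a log2 rise of 2.22 ± 0.15 or 4.64-fold (95% interval 3.65 to 5.91, limma, adjusted p = 1.18e-05).

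The dimmer Tbc1d4 probe had signals of 225, 181, 208 and 163 with LPS, against 90.6, 101, 81.8 and 95.6 in immature cells. It too separated the groups. In the fit over 25943 probes, of which 26.1% rose, its log2 rise was 1.28 ± 0.13 or 2.42-fold (95% interval 1.99 to 2.96, limma, adjusted p = 9.75e-05). The rise of the brighter probe was larger by 0.94 on the log2 scale (exact two-sided permutation p = 0.0286, adjusted 0.0524), so the direction is shared and the size of the Tbc1d4 change depends on the probe. With both probes averaged, the log2 rise of the gene was 1.75.

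Of 12 other tested genes around Tbc1d4, its Rab targets and the glucose carriers, 7 rose and 3 fell. The Rab proteins Rab13 and Rab10, which move carrier vesicles, rose by 1.30 ± 0.17 (limma, adjusted p = 0.000326) and 0.88 ± 0.08 (limma, adjusted p = 4.76e-05), Rab10 having been chosen after its value was seen. Slc2a4, the insulin-regulated carrier that Tbc1d4 is best known for, was not well above background on any array. The carriers Slc2a1 and Slc2a6 differed by 0.30 and 0.06 and did not pass (limma, adjusted p = 0.546 and 0.766). Both were chosen after their values were seen. The carrier Slc2a3 stood at 0.77, 0.74, 2.68 and 2.21 on immature replicates 1 to 4. It averaged 0.21 ± 0.28 with LPS and 1.60 ± 1.00 in immature cells and fell by 1.39 ± 0.44 (limma, adjusted p = 0.0272). That call was lost without LPS replicate 1, 2 or 4 or immature replicate 4, at limma adjusted p of 0.0617, 0.0657, 0.0581 and 0.0722, and without any of those LPS arrays 1 gene of the list fell.

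Anxa3 encodes a calcium-dependent phospholipid-binding protein. Its signal was 7846, 6769.7, 6156 and 6155 with LPS, against 7456, 7587, 8462 and 6565 in immature cells. The groups overlapped throughout, with LPS replicate 1 above 3 of the 4 immature arrays before scaling. The level was 4.05 ± 0.16 with LPS and 4.0 ± 0.15 in immature cells, a log2 difference of 0.05 ± 0.11 (95% interval -0.20 to 0.30, limma, adjusted p = 0.730). The interval allows a change between 0.870-fold and 1.23-fold, and the sign of the difference turned to -0.13, -0.16 and -0.01 with median scaling, no scaling and quantile normalization. In size, 50.9% of tested genes had a larger rise than Anxa3.

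The other annexins and their partners were split, 5 of 10 tested rising and 3 falling, where 31.4% of all genes rose and 24.6% fell. With median scaling or none 2 rose and 4 fell, and without LPS replicate 3 or immature replicate 2 the rising genes were 3. Anxa5, a binder of phosphatidylserine, rose by 0.73 ± 0.08, and Anxa1, an anti-inflammatory annexin, fell by 0.44 ± 0.11, both chosen for naming after their values were seen. Anxa13, an annexin best known from gut epithelium, was well above background on 4 LPS arrays and 1 immature array. With each immature array taken at no less than the lowest signal that counted as well above background there, it was 2.73-fold higher with LPS. On immature replicates 1 and 4 Anxa13 lay above that lowest signal, yet it counted on only 1 immature array. The 2.73-fold is therefore no strict lower bound. The fit on the values as measured gave a limma adjusted p of 0.00156, which does not test that value, and Anxa13 was tested only through its LPS arrays. S100a10, which pairs with annexin A2, fell by 0.51 ± 0.10 (limma, adjusted p = 0.00346).

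**Figure D2:**
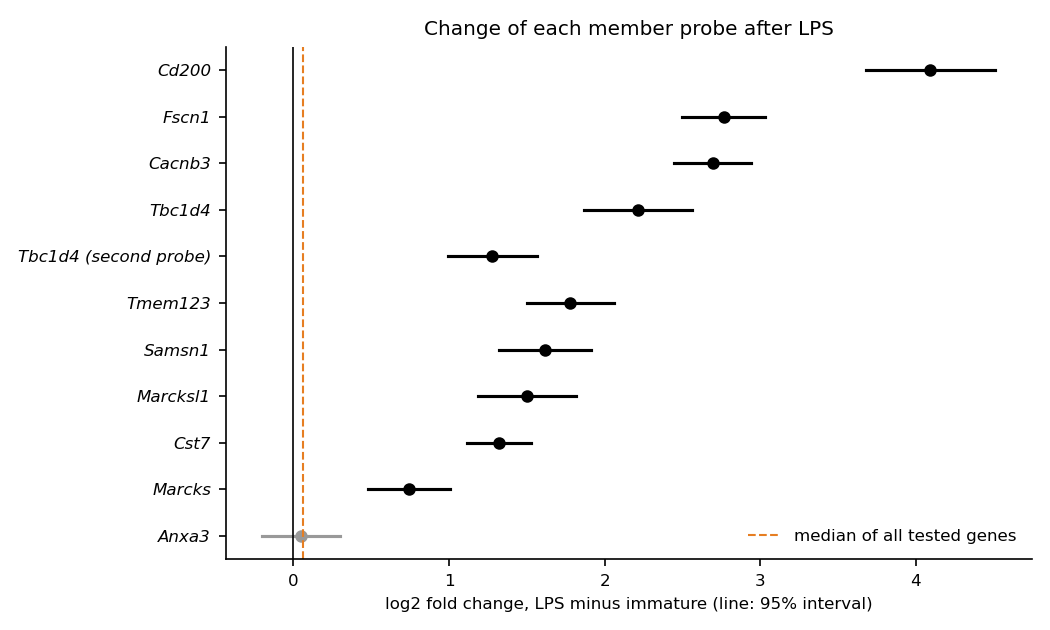
Log2 change with LPS over immature cells for each of the 10 genes and for the second Tbc1d4 probe, with the 95% interval from limma. Changes run between 4.09 for Cd200 and 0.05 for Anxa3, whose interval alone spans 0.

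Samsn1 encodes an adaptor with SH3 and SAM domains of the SLY family, known in B cells as a brake on activation. Its signal was 17037, 16794, 13375 and 14737 with LPS, against 5565, 5026, 6789.5 and 6011 in immature cells. The groups did not overlap, and immature replicate 3 was again the highest of its group. The level was 5.25 ± 0.16 with LPS and 3.63 ± 0.22 in immature cells, a log2 rise of 1.62 ± 0.13 or 3.06-fold (95% interval 2.49 to 3.76, limma, adjusted p = 2.75e-05). The Samsn1 promoter is shown because it alone among the member windows holds the Ets-IRF composite element, which PU.1 binds with an interferon regulatory factor. It lies on the minus strand of GRCm38.p6 at chr16:75909267-75909516, with capitals for that motif and each CG.

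Samsn1: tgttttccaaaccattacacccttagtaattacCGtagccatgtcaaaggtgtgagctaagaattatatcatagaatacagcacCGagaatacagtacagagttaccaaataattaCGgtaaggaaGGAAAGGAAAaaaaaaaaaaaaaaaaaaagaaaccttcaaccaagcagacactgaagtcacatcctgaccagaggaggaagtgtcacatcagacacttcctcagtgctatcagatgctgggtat

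The motif began 124 bases before the start, beside a run of A, and 2.30% of the 32851 windows hold it on either strand. The window had 3 CG pairs and 38.4% G+C, and the share among windows of like composition was not computed.

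Of the 4 other tested genes grouped with Samsn1, 1 rose and 3 fell. Sash1, the largest SLY relative, averaged 3.02 ± 0.33 with LPS and 1.45 ± 0.56 in immature cells, a log2 rise of 1.57 ± 0.28 (limma, adjusted p = 0.00179). Sash3, the relative of lymphocytes, fell by 0.52 ± 0.11 (limma, adjusted p = 0.00333) and was chosen after its value was seen. Nfatc1, a calcium-regulated transcription factor, fell by 0.62 ± 0.14 (limma, adjusted p = 0.0051).

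Cd200 encodes a surface glycoprotein that binds Cd200r1 on myeloid cells and restrains them. Its signal was 12053, 11533, 9217 and 11234 with LPS, against 775, 618, 1049.8 and 600.3 in immature cells. On the log2 scale the gap between the groups was the widest of the members, and immature replicate 3 was the brightest immature array. The level was 4.76 ± 0.14 with LPS and 0.66 ± 0.38 in immature cells, a log2 rise of 4.09 ± 0.18 or 17.1-fold (95% interval 12.8 to 22.8, limma, adjusted p = 1.49e-06). By log2 change it had rank 63 among the 12707 genes. The Cd200 promoter is shown as that of the member with the largest change, on the minus strand of GRCm38.p6 at chr16:45409054-45409303, with each CG in capitals.

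Cd200: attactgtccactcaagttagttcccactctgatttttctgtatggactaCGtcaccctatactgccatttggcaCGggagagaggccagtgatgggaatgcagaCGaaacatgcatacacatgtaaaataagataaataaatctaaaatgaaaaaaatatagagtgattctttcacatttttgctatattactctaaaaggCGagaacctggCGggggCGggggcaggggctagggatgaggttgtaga

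None of the motifs searched is in this window, which has 6 CG pairs and 42.4% G+C. The search covered TGACGTCA, TATAAA, the Ets-IRF composite element, the IRF element and the consensus sites of AP-1 and NF-kB on both strands, and the elements named after IRF can overlap. The NF-kB consensus, the IRF element and the AP-1 consensus occurred in 7.25%, 2.98% and 6.75% of all windows and in 0 of the 10 windows found for 8 members. Over those 10 windows the medians were 10.5 CG pairs and 58.2% G+C, against 15 and 59.2% over the windows of tested genes and 6 and 52.4% over all 32851. The Fscn1, Samsn1 and Cd200 windows printed here thus belong to genes that rose together while their base composition ranges widely.

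Of 7 tested genes around Cd200, namely its receptors, the adaptors Dok1 and Dok2 and the Ras regulator Rasa1, 1 rose, 4 fell and 2, Cd200r2 and Rasa1, did not pass, where 24.6% of all genes fell. Cd200r1, the inhibitory receptor, averaged 1.65 ± 0.06 with LPS and 2.82 ± 0.10 in immature cells and fell by 1.17 ± 0.08 on the log2 scale (limma, adjusted p = 9.08e-06). The related receptors Cd200r4 and Cd200r3 fell by 1.20 ± 0.14 (limma, adjusted p = 0.000181) and 0.78 ± 0.23 (limma, adjusted p = 0.0182). The receptors and Rasa1 were chosen for naming after their values were seen. Dok1 rose by 0.86 ± 0.10 (limma, adjusted p = 0.00022) and Dok2 fell by 1.22 ± 0.25 (limma, adjusted p = 0.00344). Both are adaptors downstream of Cd200r1. Cd200r3 is known from basophils and mast cells, whose 3 tested markers all fell, with sums of 0.706 to 2.01 times the 75th percentile on LPS arrays and 3.46 to 6.27 times it on immature arrays, and their part in the receptor falls was not tested.

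Tmem123, or porimin, is a mucin-like transmembrane protein that has been tied to a form of cell death. Its signal was 48664, 47101, 39983 and 37904 with LPS, against 15023, 13568, 16859 and 13000.1 in immature cells. The groups were well apart, with LPS replicates 1 and 2 brighter than 3 and 4 before scaling. The level was 6.74 ± 0.18 with LPS and 4.96 ± 0.17 in immature cells, a log2 rise of 1.78 ± 0.12 or 3.43-fold (95% interval 2.83 to 4.16, limma, adjusted p = 1.17e-05). Of 4 other tested sialomucins, 3 fell and Selplg, the selectin ligand PSGL-1, rose by 0.35 ± 0.10 (limma, adjusted p = 0.0192), a call lost with median scaling, no scaling or quantile normalization and without LPS replicate 1 or immature replicate 2. Cd34, a sialomucin of progenitor cells, averaged 1.31 ± 0.40 with LPS and 3.45 ± 0.56 in immature cells and fell by 2.15 ± 0.30 (limma, adjusted p = 0.000457).

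Cst7 encodes cystatin F, an inhibitor that reaches lysosomes and acts on cathepsin C and cathepsin L. Its signal was 3264, 2948, 2634 and 2914 with LPS, against 1476, 1345, 1189.8 and 1435 in immature cells. The groups were separate and each was tight. The level was 2.86 ± 0.10 with LPS and 1.54 ± 0.13 in immature cells, a log2 rise of 1.32 ± 0.09 or 2.50-fold (95% interval 2.16 to 2.88, limma, adjusted p = 1.17e-05). Of 9 other tested cystatins and cathepsins 3 rose and none fell, though 1 fell without scaling. The cytosolic inhibitor Cstb rose by 0.68 ± 0.07 (limma, adjusted p = 0.000136). Ctsc, the target named above, averaged 5.11 ± 0.16 with LPS and 5.19 ± 0.07 in immature cells (limma, adjusted p = 0.503), and without scaling it was lower by a log2 difference of -0.29 (limma, adjusted p = 0.0414). Ctsl averaged 7.09 ± 0.09 with LPS and 7.23 ± 0.25 in immature cells (limma, adjusted p = 0.371). Both cathepsins were chosen for naming after their values were seen.

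**Figure D3:**
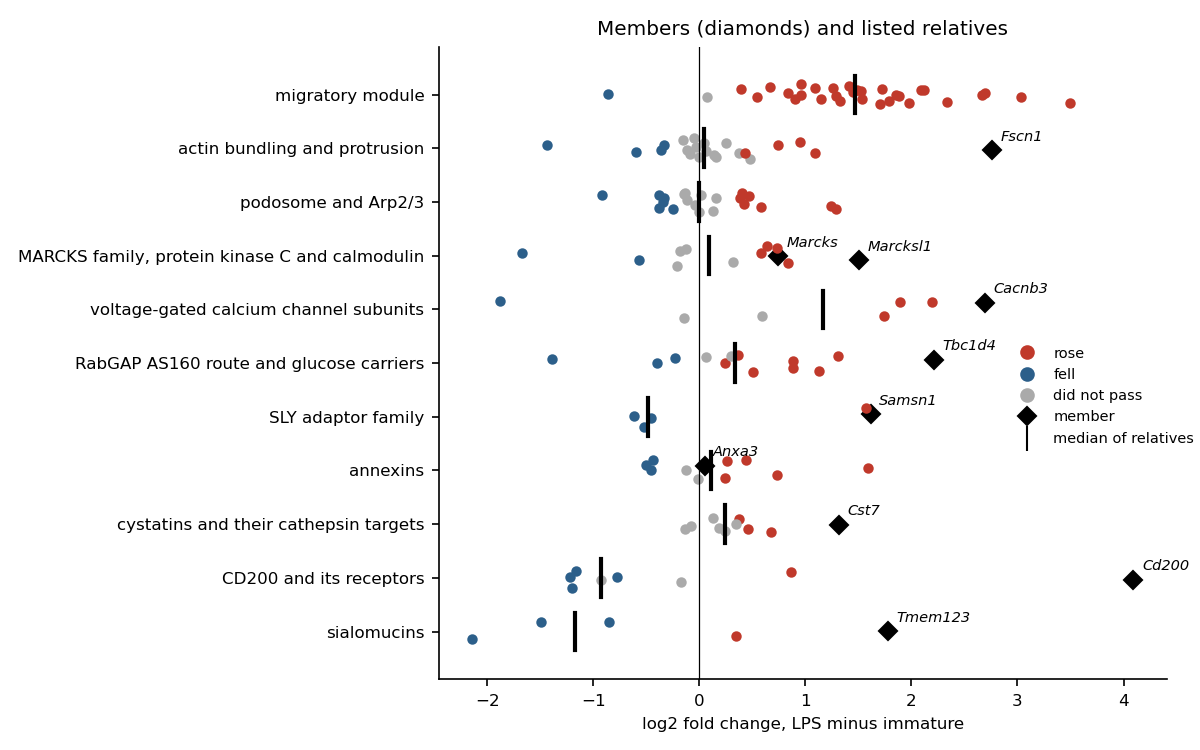
Log2 change with LPS over immature cells of the tested genes in each list of relatives, 1 point a gene, with the members set apart and the list median marked. The migratory list lies mostly above 0 with a median of 1.47, while the other lists spread to both sides of 0. The lists were chosen with earlier results of these data known, so this contrast is no test.

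Read by the size of their change, the members order as Cd200, Fscn1, Cacnb3, Tbc1d4, Tmem123, Samsn1, Marcksl1, Cst7, Marcks and Anxa3. Tbc1d4 is placed by its brighter probe. With its probes averaged, its rise of 1.75 lies below that of Tmem123 at 1.78. Neighbours were compared by exact two-sided permutation tests, with p adjusted over 11 comparisons. The steps after Cd200 (1.33), Tbc1d4 (0.44), Cst7 (0.58) and Marcks (0.70) reached the smallest possible p of 0.0286, which is 0.0524 after adjustment. The other steps, between 0.07 and 0.48 on the log2 scale, had p between 0.114 and 0.543. No step passed an adjusted p of 0.05. With p no smaller than 0.0286, a step of any size could pass only if enough of the 11 comparisons reached that floor. The neighbours were also set by sorting these same changes, so the tests cannot decide the order.

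The 32 tested genes of the migratory dendritic cell list that are not members gave 30 that rose and 1 that fell, with a median log2 change of 1.47. With median scaling or none 27 rose. Over all tested genes 31.4% rose in the main setting, with a median change of 0.06. This list too was chosen with earlier results of these data known, so its counts describe it and are no test of it. Ccr7 itself, the receptor that guides mature cells to lymph nodes, averaged 8.87 ± 0.04 with LPS and 6.75 ± 0.40 in immature cells, a log2 rise of 2.12 ± 0.18 (limma, adjusted p = 3.64e-05). Cd200, Fscn1, Cacnb3 and, by its brighter probe, Tbc1d4 at 2.22 had larger point estimates than Ccr7, differences that were not tested. With its probes averaged, Tbc1d4 at 1.75 lay below that value of Ccr7. Stat4, a signal transducer for IL-12 and interferon, had the largest rise of the list at 3.49 ± 0.35 (limma, adjusted p = 8.3e-05), and Icosl, a costimulatory ligand, fell by 0.87 ± 0.19 (limma, adjusted p = 0.00544).

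Within the groups the members did not all vary alike. LPS replicate 1 was the highest LPS array for 7 members, while replicates 3 and 4 were the lowest for 5 and 4. Immature replicate 3 was the highest immature array for 5 members, Cd200, Tbc1d4, Tmem123, Samsn1 and Anxa3, and the lowest for Marcksl1 and Cst7. Immature replicate 4 was the lowest for Cacnb3, Marcks and Anxa3. Immature replicate 3 also stands apart over all genes, as described above, and its part in these orders was not tested. Without it, all 9 rising members still passed, Cd200 with a log2 rise of 4.27 and Tbc1d4 with 2.31.

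For each member, the gene with the closest pattern over the 8 arrays was sought among 11938 others well above background on every array, after the immature mean was taken off each gene. The measure is the root mean square log2 difference, a description of these 8 arrays only. Anxa3 was closest to Tbc1d23 (0.04), Marcks to A330069E16Rik (0.06), Samsn1 to Noxo1 (0.07), Tmem123 to Gpr132 (0.09) and Cst7 to Phf11b (0.09). Marcksl1 was closest to Lactb, Cacnb3 to Pakap and Tbc1d4 to Pcbp4, at 0.12 each, and Fscn1 to Ttc39c (0.14). Cd200 had the loosest match, Oas3, at 0.25. No member was the closest gene of another.

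The other cell types in the cultures were read from lists of marker genes, summed as multiples of the 75th percentile of the array. All 9 tested neutrophil markers fell, their sum being 250.1 to 455 on LPS arrays and 746 to 881 on immature arrays, and their median log2 change was -2.56. S100a9, the brightest, fell by 0.80 ± 0.16 (limma, adjusted p = 0.00264). Of the 6 dendritic cell markers 2 rose, Flt3 by 2.65 ± 0.18 and Zbtb46 by 0.71 ± 0.19, and 3 fell, Itgax, Cd74 and H2-Aa. Their sum was 421 to 505 with LPS and 689 to 758 in immature cells. Zbtb46 lost its call with median scaling, no scaling or the mean of its probes, and these genes except Cd74 were chosen for naming after their values were seen. Macrophage markers summed to 324 to 383 with LPS and 321 to 373 in immature cells, 1 of 4 rising, and Csf1r differed by -0.13 (limma, adjusted p = 0.214), a fall that passed with median scaling, no scaling or averaged probes.

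Of 3 monocyte markers 1 rose and 1 fell, with sums of 51.5 to 82.7 with LPS and 22.04 to 36.0 in immature cells, Plac8 rising by 2.72 ± 0.19 (limma, adjusted p = 1.17e-05). Ccr2, the receptor by which monocytes leave bone marrow, fell by 3.64 on the log2 scale (limma, adjusted p = 5.35e-05) and was chosen for naming after its value was seen. Of the tested markers of B cells 0 of 2 changed, of T cells 1 of 4 rose and 2 fell, of natural killer cells 2 of 4 fell, of erythroid cells 1 of 3 fell and of endothelium and stroma 1 of 3 rose. The brightest of these had log2 differences of -0.27 for Cd79b, -1.61 for Cd28, -0.13 for Nkg7, 0.02 for Hbb-bt and -0.01 for Pecam1, of which that of Cd28 passed (limma, adjusted p = 0.0132). Markers of B, T, mast and erythroid cells, endothelium and stroma summed to at most 2.11 on every LPS array and 6.27 on every immature array. Pax5, Ebf1, Cd8b1, Mcpt4, Klf1, Cdh5, Tek, Col3a1 and Pdgfra were well above background on no array. Natural killer markers summed to 6.24 to 7.81 with LPS and 7.70 to 9.48 in immature cells, with Ncr1, Gzma and Eomes above background nowhere. These are bulk cultures, so more cells of a type and more RNA per cell cannot be told apart, and the part of cell makeup in the member changes was not tested.

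The reference genes Gapdh and Actb had log2 changes of 0.20 ± 0.06 (limma, adjusted p = 0.0242) and 0.23 ± 0.06 (limma, adjusted p = 0.0115). Both calls were lost with median scaling, no scaling or quantile normalization, and Gapdh stood at -0.01 without scaling. The share of called genes that rose was 56.1%, against 38.5% with arrays scaled to their median and 35.3% without scaling, and the median change of all genes was 0.06, -0.12 and -0.15 under the same 3 settings. The 9 members that rose kept direction and call in each of them. These 3 settings shift every gene and that median of all genes by the same amount. Marcks, the smallest of the 9, therefore lay above the median in each by construction, which is no test.

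**Figure D4:**
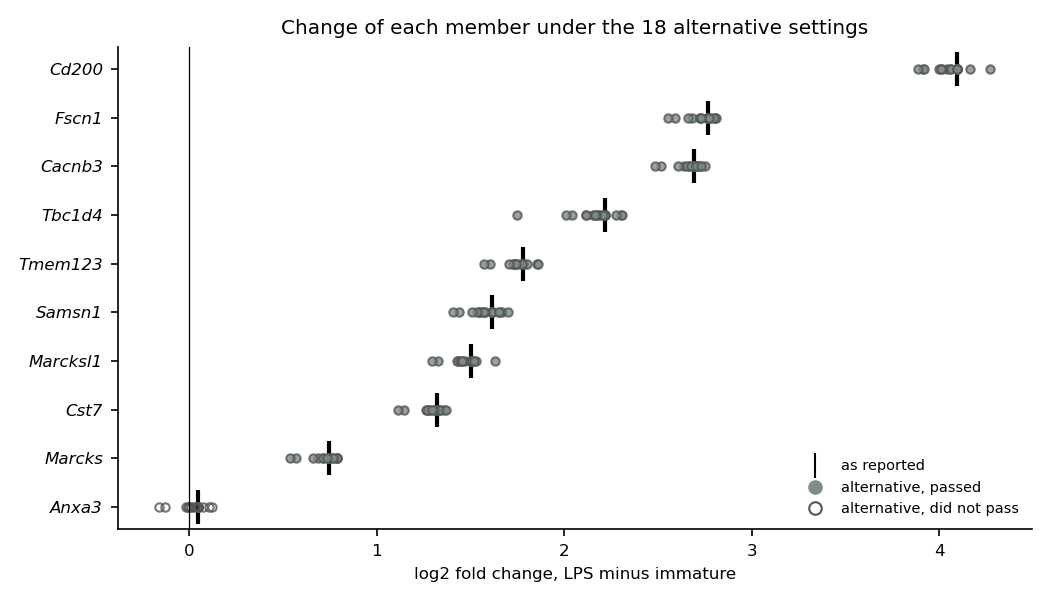
Log2 change with LPS over immature cells of each member in the main setting and under 18 other ways of processing the arrays. The 9 rising genes stay above 0 throughout, and Anxa3 lies between -0.16 and 0.12.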

How the data were processed

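Total RNA of 4 LPS and 4 immature samples was labelled with Cy3 and hybridised to one-colour mouse arrays, per the labels. Per the file headers the authors' scanner software was Agilent Feature Extraction 11.0.1.1. The deposited processed signal is an intensity that software had background-subtracted, with no scaling from array to array. Median spot and background intensities in the deposited files were used for the normexp alternative, since a mean signal is not among the columns. The deposited other columns used are flags of 0 or 1, per the file headers.

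Outlier-flagged spots (168 to 206 per LPS array, 122 to 144 per immature array) were left out, log2 signals of a probe's spots averaged and each array's 75th percentile subtracted. Of 55681 non-control probes, 27509 had an accession of a single RefSeq symbol, covering 20887 genes. The probe with the highest mean represented each of the 5512 genes with several. The 12707 genes tested had to be well above background in every array of either group. The LPS against immature comparison used limma's lmFit and eBayes (limma 3.58.1, R 4.3.3, version 1.17.8 of data.table, jsonlite 2.0.0), with Benjamini-Hochberg adjustment over all genes and calls at 0.05. The code was tested on simulated data. Python 3.11.15 with numpy 2.4.6, scipy 1.17.1, pandas 2.3.3 and matplotlib 3.10.9 made the permutation tests, promoter searches and figures. No spot was saturated. Precision is limited by there being 4 arrays a group.

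The members and lists were chosen with earlier results of these data known. Besides the members, Ccr7, Gapdh and Actb, the naming rule takes the largest called rise and fall of each list of relatives, the brightest gene of each marker list and each member's nearest pattern. Other genes named, those given as not above background included, were chosen after their values were seen. Replicates 1 and 2 of each group were close (0.120 for LPS and 0.117 for immature cells, against 0.0591 to 0.0750 between spots of 1 array). They were counted separately because the labels list them as separate samples, and averaging them is given as an alternative. Same-numbered samples' deviations correlated at 0.19, 0.02, 0.06 and -0.11, so numbers were not taken as pairs. The array design uses another genome build than the RefSeq tables, so gene positions on it are not given. Of the members, 8 had promoter windows. Alternatives covered background correction, scaling, filters, probe choice, flags, the replicate block and leaving out each array.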

Additional observations from a re-analysis of the deposited data

Results flagged for a closer look

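No member had an array past the outlier limit given next, though 2 came close to it. Fscn1 stood at 4.59 on LPS replicate 1, against 4.13 to 4.21 on the other LPS arrays. Marcks stood at 5.29 on immature replicate 4, against 5.61 to 5.67 on the other immature arrays. Of 148 groups examined over 74 named genes, 3 (2.03%) held an array whose gap to the nearest other array exceeded Dixon's 95% limit as a share of the group's range, where chance gives about 1 in 20. Diaph3 stood at a level of 0.0179 on immature replicate 3, against 0.76 to 0.81 on the other immature arrays. Cacna1d stood at -1.44 on immature replicate 3, against -2.35 to -2.21 on the others. Mcpt8, a basophil protease gene, stood at 1.87 on immature replicate 4, against 0.76 to 0.86 on the others.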

How the results depend on the processing

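The 9 rising members kept direction and call in 162 of 162 results under 18 alternatives, with log2 rises of 3.89 to 4.27 for Cd200, 2.56 to 2.81 for Fscn1, 2.48 to 2.75 for Cacnb3, 1.75 to 2.31 for Tbc1d4, 1.57 to 1.86 for Tmem123, 1.41 to 1.70 for Samsn1, 1.29 to 1.63 for Marcksl1, 1.11 to 1.37 for Cst7 and 0.54 to 0.79 for Marcks. Anxa3 turned to -0.13 with arrays scaled to their median, -0.16 without scaling, -0.0068 with quantile normalization and -0.0057 with replicates 1 and 2 averaged, and ran from -0.0181 to 0.118 with single arrays left out. The genes called numbered 7122, 10769 with no filter on dim probes, where 20887 genes were tested, and 6191 to 7903 with single arrays left out. With the replicate number as a block 6613 genes were called and the 9 members kept their calls, while Cd200r2 gained one (limma, adjusted p = 0.00416). Averaging replicates 1 and 2, chosen after seeing the data, gave 5438. Of 1150 results for other named genes, 27 lost and 8 gained their call and 14 changed sign. Those that changed sign were Pecam1 (0.0667 with normexp, -0.0969 to 0.0681 with single arrays left out), Hbb-bt (-0.15 with median scaling, -0.19 without scaling, -0.00076 with quantile normalization, -0.268 to 0.298 left out), Tbc1d23 (-0.11 and -0.14 with median and no scaling), Gapdh (-0.0080 without scaling) and Cd79b (-0.521 to 0.0358 left out). Median scaling and no scaling shift the log2 change of every gene alike, by -0.18 and -0.21. Beyond these shifts, the cause of the sign changes was not tested. Of 396 list counts, 32 moved by over 1.5 times. Row 1 or 2 of the slide, a further night in culture and LPS cannot be told apart, and 4 arrays a group limit a permutation test to 0.0286.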
